A study of Mus musculus with 8 samples.

Results

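Imprinted genes are expressed mainly or only from the copy inherited from 1 parent. The group described here was drawn up as 42 mouse gene symbols from the known imprinted clusters and from single imprinted loci. The symbols were chosen by name, with earlier results of these data known. Of these, 38 had a probe set that the array annotation assigned to exactly 1 symbol, out of 18193 genes measured in that way. Rtl1, Dio3 and Zrsr1 had no such probe set, and the probe set of H19 was shared with the microRNA gene inside it, so these 4 were not measured. Each gene was read from its brightest probe set, ranked by the mean of log2(intensity + 16) over all arrays. Of the 38 genes, 25 had a mean intensity above the median of all genes, which was 103. Zim1 was under an intensity of 16 on all 8 arrays, and 32 genes were above that value on every array.

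The cells were male mouse embryonic stem cells of strain 129S4/Svjae, grown in medium with leukaemia inhibitory factor, a cytokine that keeps such cells undifferentiated. They were infected with lentivirus that expressed a short hairpin RNA, selected with puromycin and passaged 2 to 3 times before RNA was taken. The 3 control samples carried a hairpin against GFP, a reporter protein foreign to mouse cells; 3 samples carried a hairpin against Jmjd2b and 2 a hairpin against Jmjd2c. Jmjd2b and Jmjd2c (gene symbols Kdm4b and Kdm4c) are demethylases that remove methyl groups from lysine residues of histone H3, including a mark of silent chromatin, and each sample was hybridised to 1 array. Lentiviral infection, the hairpin cassette and puromycin were thus common to all groups. Arrays of the knockdown samples are called Jmjd2b arrays and Jmjd2c arrays below. The labels used here do not say how many hairpins were used per gene or whether numbered samples were separate infections, so the p-values reflect variation among these particular samples, possibly only technical.

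An imprint is laid down in the germ line as DNA methylation at a control region and kept through the genome-wide demethylation of the early embryo. At these regions the zinc finger protein ZFP57, with its partner TRIM28, binds the methylated hexamer TGCCGC and recruits silencing enzymes to the methylated copy. Many paternally expressed genes promote growth of the embryo and placenta and many maternally expressed ones restrain it, and embryonic stem cells in culture can lose or gain imprints. An array adds up both parental copies: a change in intensity does not show which copy it came from, nor whether the imprint was altered. In a population of cells, a higher level in every cell and a larger number of expressing cells cannot be told apart either.

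Promoter sequences are shown for the imprinted genes that passed the test in both knockdowns in the same direction, so that the genes that rose can be set beside the genes that fell. Each is the 250 bases before the annotated transcript start, from RefSeq on build GRCm38.p6, written 5′ to 3′ on the strand of the gene. Capitals mark the hexamer TGCCGC or, where it lies on the opposite strand, its reverse complement GCGGCA. For Meg3 and Ampd3 the first listed of several starts is shown, and Impact has no entry in the table. The genes that rose are Peg3 (chr7:6730420-6730669, minus strand), Meg3 (chr12:109540746-109540995, plus strand) and Ndn (chr7:62348027-62348276, plus strand). The genes that fell are Ampd3 (chr7:110768372-110768621, plus strand), Ascl2 (chr7:142969265-142969514, minus strand) and Slc22a18 (chr7:143473539-143473788, plus strand).
Peg3: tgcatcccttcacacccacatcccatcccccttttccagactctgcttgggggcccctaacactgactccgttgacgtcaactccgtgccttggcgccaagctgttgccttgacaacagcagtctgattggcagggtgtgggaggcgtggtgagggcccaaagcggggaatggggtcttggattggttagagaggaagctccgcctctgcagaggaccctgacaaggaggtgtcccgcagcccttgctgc
Meg3: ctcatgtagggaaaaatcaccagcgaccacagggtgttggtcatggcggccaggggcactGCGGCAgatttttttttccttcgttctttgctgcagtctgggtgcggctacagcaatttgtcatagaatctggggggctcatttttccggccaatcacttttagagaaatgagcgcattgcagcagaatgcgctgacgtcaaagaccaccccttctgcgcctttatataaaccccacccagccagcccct
Ndn: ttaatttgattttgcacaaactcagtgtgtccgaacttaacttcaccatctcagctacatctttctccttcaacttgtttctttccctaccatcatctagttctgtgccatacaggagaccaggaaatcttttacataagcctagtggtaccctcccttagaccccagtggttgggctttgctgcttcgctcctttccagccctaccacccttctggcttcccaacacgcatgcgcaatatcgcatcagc
Ampd3: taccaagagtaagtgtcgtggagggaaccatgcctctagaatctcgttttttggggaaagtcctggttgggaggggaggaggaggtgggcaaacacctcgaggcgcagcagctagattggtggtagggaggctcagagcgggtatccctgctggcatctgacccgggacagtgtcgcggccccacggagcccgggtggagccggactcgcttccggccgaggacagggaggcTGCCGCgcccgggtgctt
Ascl2: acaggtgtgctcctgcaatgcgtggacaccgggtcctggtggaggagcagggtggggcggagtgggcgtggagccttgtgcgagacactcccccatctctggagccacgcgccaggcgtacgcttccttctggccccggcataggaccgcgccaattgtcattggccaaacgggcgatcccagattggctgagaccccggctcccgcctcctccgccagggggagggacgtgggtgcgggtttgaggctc
Slc22a18: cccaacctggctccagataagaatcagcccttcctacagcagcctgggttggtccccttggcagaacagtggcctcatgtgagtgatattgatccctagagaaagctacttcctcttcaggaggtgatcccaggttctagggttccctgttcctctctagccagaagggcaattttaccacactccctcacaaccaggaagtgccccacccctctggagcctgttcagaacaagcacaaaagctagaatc

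The hexamer was found once in the Meg3 promoter, on the minus strand at base 61 from its 5′ end, and once in the Ampd3 promoter, on the plus strand at base 233, close to the start. The other 4 windows did not hold it, which says only that these letters are not in these 250 bases. Searched on both strands, the hexamer was in 8 of the 52 promoters of the 33 imprinted genes that the table lists (15.4%) and in 8.68% of all 32851 promoters. The 8 include a pair of Mest windows that overlap and hold the same hexamers, so the hexamer was in a promoter of 7 of the 33 genes and, counted the same way, in 9.84% of all genes. The CG dinucleotide, the site of DNA methylation, occurred 19 times in the Ascl2 window, 17 times in that of Ampd3, 10 times in that of Meg3, 8 times in that of Peg3, 5 times in that of Ndn and 0 times in that of Slc22a18. The median was 10 over the promoters of the imprinted genes and 6 over all promoters. Rising and falling genes were thus not parted by CG number in these windows.

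The hairpins lowered their targets. Kdm4b intensity was 421, 339 and 643 on the 3 control arrays and 50.3, 29.3 and 17 on the 3 Jmjd2b knockdown arrays, where its mean was 6.89% of the control mean (log2 difference -3.34 ± 0.28 (SE), limma adjusted p = 7.79e-05). Kdm4c intensity was 1332, 1300.1 and 1210.0 on the control arrays and 142 and 469 on the Jmjd2c knockdown arrays, 23.9% of the control mean (-2.23 ± 0.36, limma adjusted p = 0.00687). The hairpin against Jmjd2c thus left more of its target on array 2 than on array 1, and on array 2 alone the difference was -1.42. In the Jmjd2b knockdown, Kdm4c was at 752, 800.0 and 650.5, which did not pass over all 8 arrays (limma adjusted p = 0.102). It passed in a fit of only the Jmjd2b and control groups (difference -0.79, adjusted p = 0.000278), where 30.8% of all genes were called. Kdm4b was at 245 and 285 in the Jmjd2c knockdown, below every control array and at 56.6% of the control mean. That difference did not pass (-0.74 ± 0.31, limma adjusted p = 0.178). The arrays also differ in a way that the groups do not explain. Control arrays 1 and 2 and Jmjd2b knockdown array 2 hold a floor of values at exactly 1, and the others hold values below 1. Shared exact values also part the arrays into 3 sets, namely those 3 arrays, control array 3 with Jmjd2b knockdown array 1, and Jmjd2b knockdown array 3 with both Jmjd2c knockdown arrays. The third set has no control, so every comparison of the Jmjd2c knockdown with the control crosses sets; in the fit with the set as a block, Jmjd2b array 3 is the only link.

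After Jmjd2b knockdown 14 of the 38 imprinted genes rose, 6 fell, and 18 did not pass the test (limma, Benjamini-Hochberg adjusted p under 0.05 over all genes). The called share was 52.6%, against 24.4% of all genes; 36.8% rose, against 11.5% of all genes, and 15.8% fell, against 12.9%. Bright genes pass more often: among genes above the median level 37.1% passed, and among the 25 imprinted genes above it 60.0% did. The median difference of the imprinted genes was 0.29 on the log2(intensity + 16) scale, against -0.03 for all genes. Every difference below is on that scale, which understates changes of dim genes, and is given with its standard error; folds are ratios of group mean intensities. The 3 Jmjd2b arrays were all above the 3 control arrays for 20 imprinted genes and all below for 7, and over all genes 44.8% had groups that did not overlap (20.9% above, 23.8% below). All 20 called genes moved in the called direction within the first set of arrays and within the second. They were called from these same arrays, so this is no separate check of the calls. The fit with the replicate number as a block called 16 genes higher and 6 lower, adding Cd81 and Magel2 (23.7% of all genes called). Without control array 3 or Jmjd2b array 2 the genes called lower were 3 (14.4% and 15.1% of all genes called). With the array set as a block 9 genes were called higher and 4 lower (16.4% of all genes called). That fit lost Dlk1, Mest, Mirg, Rian, Sgce, Slc22a18 and Slc38a4. The mean of all probe sets of a gene lost Ascl2, Dlk1, Gnas and Sgce in the Jmjd2b knockdown (-0.60, 0.34, 0.36 and 0.48, adjusted p from 0.058 to 0.153) and Peg3, Meg3 and Impact in the Jmjd2c knockdown (0.55, 0.50 and 0.61, adjusted p from 0.0696 to 0.0761).

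**Figure D1:**
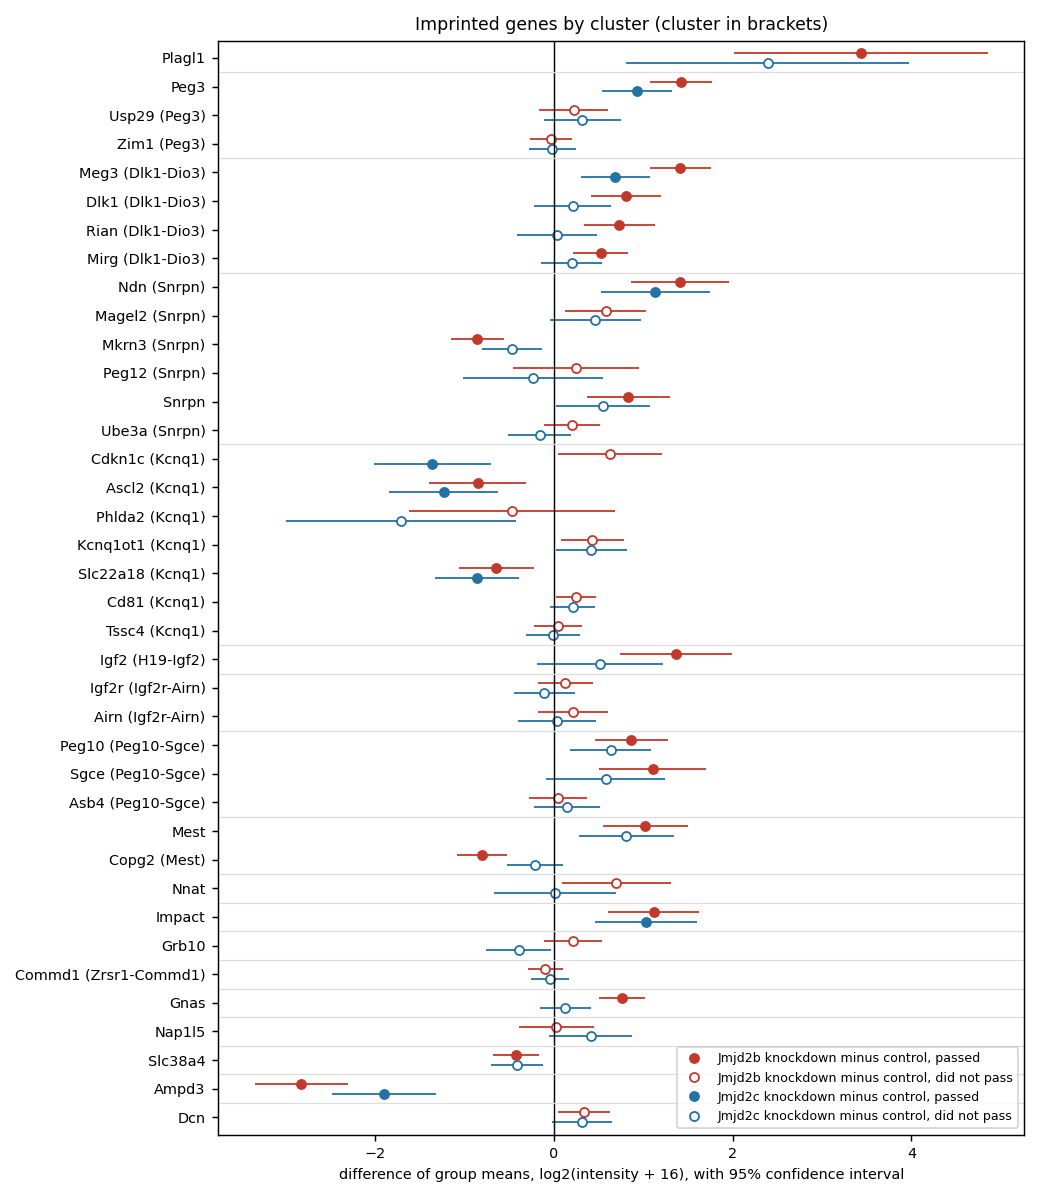
Differences of group means from the control on the log2(intensity + 16) scale (x axis), with 95% confidence intervals, for the 38 measured imprinted genes (y axis, cluster in brackets). Red is the Jmjd2b knockdown and blue the Jmjd2c knockdown; filled points passed limma's adjusted p of 0.05. Plagl1 lies farthest to the right and Ampd3 farthest to the left in both knockdowns, and Cdkn1c has the 2 knockdowns on opposite sides of 0.

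Plagl1, a zinc finger transcription factor expressed from the paternal copy, had the largest difference among the imprinted genes. Its intensity was 130.4, 161 and 98.5 on the control arrays, 1293, 1948 and 1445 on the Jmjd2b knockdown arrays and 224 and 2349.7 on the Jmjd2c knockdown arrays. All 5 knockdown arrays were above all controls, but Jmjd2c array 1 was near the controls and array 2 was the highest of the 8. The mean rose 12-fold in the Jmjd2b knockdown (difference 3.44 ± 0.64, limma adjusted p = 0.00367), while the Jmjd2c difference of 2.39 ± 0.71 did not pass (adjusted p = 0.0638). Taken alone, Jmjd2c arrays 1 and 2 differed from the control mean by 0.74 and 4.04. The probe set is of a type that can detect related transcripts. The 2 other Plagl1 probe sets had mean intensities of 43.4 and 3.79 and Jmjd2b differences of 0.06 and 0.05, so the rise rests on 1 probe set. Without probe sets of that type the Plagl1 difference was 0.06 (adjusted p = 0.848).

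Peg3, a paternally expressed zinc finger gene that heads a cluster on chromosome 7, rose in both knockdowns. Its intensity was 539, 789 and 772 on control arrays, 1771, 1901 and 1959.8 on Jmjd2b arrays and 1519 and 1155 on Jmjd2c arrays, with no overlap between either knockdown and the controls. The Jmjd2b mean was 2.68-fold the control mean (1.42 ± 0.16, limma adjusted p = 0.000271) and the Jmjd2c mean 1.91-fold (0.92 ± 0.18, adjusted p = 0.0126). In the same cluster Usp29, a member of a deubiquitinase family, and Zim1, another zinc finger gene, were dim. Their Jmjd2b differences were 0.22 (95% interval -0.16 to 0.60) and -0.03 (-0.27 to 0.20), and neither passed in any of the 3 comparisons.

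Where 24.4% of all genes were called in the Jmjd2b knockdown, the Dlk1-Dio3 cluster on chromosome 12 was the cluster of more than 2 measured genes in which every measured gene was called. It holds the paternally expressed Dlk1, a transmembrane protein related to Notch ligands, and maternally expressed noncoding RNAs: Meg3, Rian, which hosts small nucleolar RNAs, and Mirg, which hosts microRNAs. Meg3 is silenced in many mouse induced pluripotent lines, and it was bright here in every group. Meg3 intensity was 1111, 1486 and 1565 on control arrays, 3287, 3375 and 4511 on Jmjd2b arrays and 2365 and 2078 on Jmjd2c arrays. The 3 groups did not overlap, and the Jmjd2c arrays lay between the others. The Jmjd2b difference was 1.41 ± 0.15 (limma adjusted p = 0.000257) and the Jmjd2c difference 0.69 ± 0.17 (adjusted p = 0.0347). The latter was lost without control array 1, 2 or 3, Jmjd2b knockdown array 1 or 2 or Jmjd2c knockdown array 1 or 2 (difference 0.54 to 0.78, adjusted p from 0.0502 to 0.0895), and with the array set as a block (0.23, adjusted p = 0.728).

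Rian intensity was 836, 1329 and 1226 on control arrays, 1606, 1779 and 2223 on Jmjd2b arrays and 1062 and 1215 on Jmjd2c arrays. The Jmjd2b arrays were above all others and the Jmjd2c arrays lay within the controls. Rian rose in the Jmjd2b knockdown (0.73 ± 0.18, limma adjusted p = 0.014), a call lost without Jmjd2b knockdown array 3 (difference 0.60, adjusted p = 0.0527). Mirg intensity was 147, 145 and 152 on control arrays, 200.1, 230.3 and 228 on Jmjd2b arrays and 196 and 151 on Jmjd2c arrays, with 1 Jmjd2c array among the controls. Mirg rose by 0.52 ± 0.14 in the Jmjd2b knockdown (adjusted p = 0.0198) and lost the call without control array 1, 2 or 3 or Jmjd2b knockdown array 2 or 3 (difference 0.49 to 0.54, adjusted p from 0.0578 to 0.0835). Dlk1 was dim, at 10.2, 23.4 and 18.3 on control arrays, 35.7, 38.7 and 50.6 on Jmjd2b arrays and 23.5 and 20.4 on Jmjd2c arrays, and only the Jmjd2b arrays were clear of the controls. Dlk1 rose in the Jmjd2b knockdown (0.80 ± 0.17, adjusted p = 0.00807), but its second, dimmer probe set gave -0.13. Genes read from the paternal and from the maternal copy thus moved the same way in this cluster.

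In the Snrpn cluster on chromosome 7, the region lost in Prader-Willi and Angelman syndromes in people, 2 of 6 genes were called higher and 1 lower after Jmjd2b knockdown. Ndn, which encodes necdin, a MAGE-family protein, was at 524, 545 and 513 on control arrays, 1338, 1565 and 1388 on Jmjd2b arrays and 767 and 1799.7 on Jmjd2c arrays. All 5 knockdown arrays exceeded the controls, and Jmjd2c array 2 was the highest of all. The differences were 1.41 ± 0.24 (limma adjusted p = 0.00259) and 1.13 ± 0.27 (adjusted p = 0.0303), the second of which was lost without control array 1, 2 or 3 or Jmjd2b knockdown array 1 or 2 (difference 1.11 to 1.16, adjusted p from 0.0501 to 0.107). Its Jmjd2c difference was 1.74 without Jmjd2c array 1 and 0.53 without array 2, each from 1 array. Snrpn, a splicing protein gene, was at 25.4, 37.3 and 31.3 on control arrays, 64.9, 97.5 and 48 on Jmjd2b arrays and 59.8 and 46.6 on Jmjd2c arrays, with every knockdown array above the controls. It rose in the Jmjd2b knockdown (0.83 ± 0.21, adjusted p = 0.0166), a call lost without control array 1 or 3 or Jmjd2b knockdown array 2 (difference 0.61 to 0.83, adjusted p from 0.0584 to 0.0673). This value comes from a dim probe set, since the other Snrpn probe sets are also annotated to Snurf and were not used here.

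Mkrn3, a RING finger gene, moved the other way: it was at 290.0, 255 and 319 on control arrays, 138, 149 and 167 on Jmjd2b arrays and 197 and 208 on Jmjd2c arrays, with both knockdowns below all controls. Mkrn3 fell after Jmjd2b knockdown (-0.86 ± 0.13, limma adjusted p = 0.00152), and its Jmjd2c difference of -0.47 did not pass (adjusted p = 0.0791). Ndn and Mkrn3 are both read from the paternal copy and were called in opposite directions. Magel2, another MAGE-family gene, differed by 0.58 ± 0.20 in the Jmjd2b knockdown (limma adjusted p = 0.0665), with all Jmjd2b arrays above the controls. It passed with the replicate block (adjusted p = 0.0312) and in the fit of only the 2 groups compared (adjusted p = 0.0488). Of all genes, 23.7% and 30.8% were called in those fits. Ube3a, a ubiquitin ligase whose imprinting is largely limited to neurons, differed by 0.20 (-0.11 to 0.52) and Peg12 by 0.25 (-0.46 to 0.95).

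In the Kcnq1 cluster, also on chromosome 7, 2 of 7 measured genes were called lower in the Jmjd2b knockdown (28.6%) and 3 in the Jmjd2c knockdown (42.9%). None was called higher. Of all genes 24.4% and 9.53% were called in either direction, so the Jmjd2b share was near that of all genes. The long noncoding RNA of the cluster, Kcnq1ot1, is read from the paternal copy and silences the protein-coding genes around it on that copy. For Kcnq1ot1 the Jmjd2b difference was 0.43 ± 0.16 and the Jmjd2c difference 0.42 ± 0.18. All arrays of both knockdowns were above the controls, but neither difference passed (limma adjusted p = 0.0786 and 0.187). These values come from the brightest Kcnq1ot1 probe set, with a mean of 178. The next, with a mean of 173, gave 0.83 and 0.70, and the third, with a mean of 121, gave 0.59 and 0.58. The others were below the median level of all genes and gave -0.64 to 0.13 and -0.23 to 0.20. The size of the difference thus depended on the probe set. Ascl2, a helix-loop-helix factor of the trophoblast, was at 162, 97.5 and 119 on control arrays, 40.1, 59 and 93.5 on Jmjd2b arrays and 43.4 and 43.3 on Jmjd2c arrays, with both knockdowns below every control. It fell by 0.86 ± 0.24 (limma adjusted p = 0.0291) and by 1.24 ± 0.27 (adjusted p = 0.0222). The Jmjd2b call was lost without control array 1 or 3 or Jmjd2b knockdown array 1 or 2 (difference -0.88 to -0.62, adjusted p from 0.0814 to 0.11), and the Jmjd2c call without control array 1 or 3 or Jmjd2c knockdown array 2 (difference -1.26 to -1.06, adjusted p from 0.0576 to 0.079). With the replicate block the Jmjd2c difference of Ascl2 was -1.12 (adjusted p = 0.0512).

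Slc22a18, a membrane transporter, was at 70.5, 56.9 and 57.4 on control arrays, 45.7, 24.3 and 32.4 on Jmjd2b arrays and 33.8 and 20.5 on Jmjd2c arrays, again with no overlap with the controls. It fell in both (-0.65 ± 0.19, limma adjusted p = 0.0318, and -0.86 ± 0.21, adjusted p = 0.0328). The Jmjd2b call was lost without control array 1, 2 or 3 or Jmjd2b knockdown array 2 or 3 (difference -0.69 to -0.50, adjusted p from 0.0601 to 0.13), and the Jmjd2c call without control array 1, 2 or 3 or Jmjd2c knockdown array 2 (difference -0.90 to -0.64, adjusted p from 0.063 to 0.147). Phlda2, which limits placental growth, was at 3088, 3497 and 3629 on control arrays, 2346, 2185 and 2837 on Jmjd2b arrays and 2689 and 387 on Jmjd2c arrays. It did not pass in either comparison over all arrays, and the Jmjd2c arrays lay far apart, with array 2 the lowest of all 8. Taken alone, Jmjd2c arrays 1 and 2 differed from the control mean of Phlda2 by -0.34 and -3.08. The Jmjd2b difference of -0.47 passed in the fit of only the 2 groups compared (limma adjusted p = 0.00636), where 30.8% of all genes were called. Cd81, a tetraspanin, and Tssc4 differed from the control by 0.25 and 0.04 in the Jmjd2b knockdown; Cd81 passed with the replicate block (0.25, adjusted p = 0.0456).

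Cdkn1c, the maternally expressed cell cycle inhibitor of the same cluster, was the only imprinted gene that differed between the 2 knockdowns. Its intensity was 706, 774 and 670.3 on control arrays, 961, 1045 and 1376 on Jmjd2b arrays and 415 and 172 on Jmjd2c arrays. The Jmjd2b arrays were all above the controls and the Jmjd2c arrays all below, so the 3 groups did not overlap. The Jmjd2c mean was 3.84-fold lower than the Jmjd2b mean (difference -1.99 ± 0.29, limma adjusted p = 0.0241). Against the control, Cdkn1c fell in the Jmjd2c knockdown (-1.36 ± 0.29, adjusted p = 0.0201), and its Jmjd2b difference of 0.63 ± 0.26 did not pass (adjusted p = 0.116). The difference between the knockdowns lost its call without control array 1, 2 or 3 or Jmjd2b knockdown array 1, 2 or 3 (difference -2.09 to -1.84, adjusted p from 0.0536 to 0.107), and the fall against the control without control array 1, 2 or 3 (difference -1.41 to -1.31, adjusted p from 0.0562 to 0.069). Within the third set of arrays, which holds both knockdowns, the Jmjd2c mean was 2.29 below Jmjd2b array 3 on the log2 scale. With the array set as a block the difference between the knockdowns was the same -2.29 and did not pass (adjusted p = 0.221), nor did it with the array type as a block (-1.99, adjusted p = 0.0849). Against the control the same blocks gave -1.79 (adjusted p = 0.213) and -1.36 (adjusted p = 0.072). The difference was -1.96 without Jmjd2c array 1 and -0.76 without array 2, each from 1 array. The fit of only the 2 groups compared also ended both calls (adjusted p = 0.147 between the knockdowns and 0.0569 against the control), and the Jmjd2b difference passed in it (adjusted p = 0.00524).

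**Figure D2:**
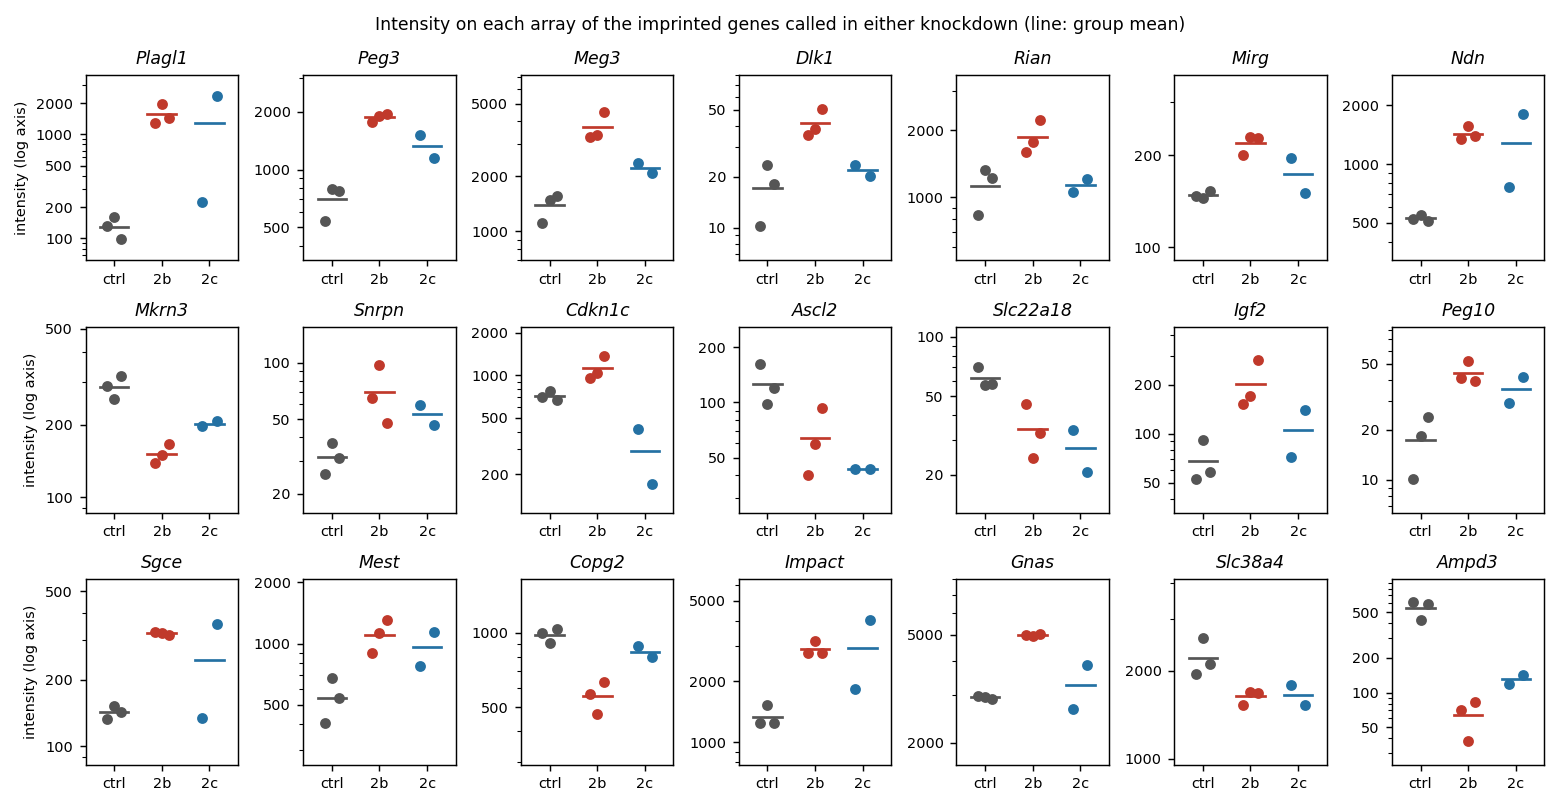
Intensity on each array (y axis, log scale, different range per panel) of the 21 imprinted genes called in at least 1 knockdown, with control arrays in grey, Jmjd2b knockdown arrays in red and Jmjd2c knockdown arrays in blue; points are arrays in replicate order and lines are group means. Ampd3 has all 5 knockdown arrays at 142 or below and all controls at 423 or above, while for Plagl1, Ndn, Sgce and Impact the 2 Jmjd2c arrays lie far apart.

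Of the growth factor pair Igf2 and Igf2r, the ligand rose in the Jmjd2b knockdown and its receptor did not pass. Igf2, read from the paternal copy, was at 52.6, 91.7 and 58.5 on control arrays, 152, 170.2 and 283 on Jmjd2b arrays and 72 and 140.1 on Jmjd2c arrays, where 1 array lay within the controls. The Jmjd2b mean of Igf2 was 2.98-fold the control mean (1.36 ± 0.28, limma adjusted p = 0.00646). Igf2r, which clears the ligand from the cell surface and is read from the maternal copy, differed by 0.13 in the Jmjd2b knockdown (-0.18 to 0.43) and -0.11 in the Jmjd2c knockdown (-0.45 to 0.23). Airn, the noncoding RNA that silences the paternal copy of Igf2r, differed by 0.21 (-0.18 to 0.60) and 0.04 (-0.40 to 0.47).

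In the Peg10-Sgce cluster on chromosome 6, both paternally expressed genes rose in the Jmjd2b knockdown. Peg10, a gene derived from a retrotransposon and needed by the placenta, was at 10.2, 18.3 and 23.8 on control arrays, 41, 52.2 and 39.4 on Jmjd2b arrays and 29.2 and 41.7 on Jmjd2c arrays, all knockdown arrays being above the controls. Sgce, a sarcoglycan, was at 132, 152 and 142 on control arrays, 329, 323 and 317 on Jmjd2b arrays and 134 and 355 on Jmjd2c arrays, with Jmjd2c array 1 among the controls and array 2 the highest of all. The Jmjd2b differences were 0.86 ± 0.18 for Peg10 (limma adjusted p = 0.00729) and 1.10 ± 0.27 for Sgce (adjusted p = 0.0137), the latter lost without control array 1 or 3 or Jmjd2b knockdown array 2 (difference 1.06 to 1.10, adjusted p from 0.0506 to 0.0511). Taken alone, Jmjd2c arrays 1 and 2 differed from the control mean of Sgce by -0.07 and 1.23. The maternally expressed Asb4 was dim and differed by 0.04 in the Jmjd2b knockdown (-0.29 to 0.37).

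Mest and Copg2 lie next to each other on chromosome 6 and are listed as read from opposite parental copies. Mest, a hydrolase-like protein gene of mesodermal tissue, was at 406, 675 and 543 on control arrays, 896, 1123 and 1298 on Jmjd2b arrays and 778 and 1139 on Jmjd2c arrays. Copg2, a subunit of the coat of transport vesicles, was at 995, 907 and 1033 on control arrays, 566, 469 and 631 on Jmjd2b arrays and 883 and 798 on Jmjd2c arrays. Every knockdown array was above the controls for Mest and below them for Copg2. In the Jmjd2b knockdown Mest rose (1.02 ± 0.21, limma adjusted p = 0.00634) and Copg2 fell (-0.81 ± 0.13, adjusted p = 0.00157). In the Jmjd2c knockdown Mest differed by 0.81 ± 0.24 (adjusted p = 0.0595). It passed with the replicate block (0.88, adjusted p = 0.0126) and without control array 2 (0.98, adjusted p = 0.0456). On Jmjd2c arrays 1 and 2 alone the difference was 0.54 and 1.08.

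Among the single loci, Impact and Gnas rose and Ampd3 and Slc38a4 fell in the Jmjd2b knockdown. Ampd3, an AMP deaminase listed as read from the maternal copy, was at 607, 423 and 588 on control arrays, 71.2, 37.8 and 82.3 on Jmjd2b arrays and 119.6 and 142 on Jmjd2c arrays. The 3 groups did not overlap. Ampd3 fell 8.46-fold (-2.83 ± 0.23, limma adjusted p = 7.61e-05) and 4.12-fold (-1.90 ± 0.26, adjusted p = 0.00424), the deepest falls among the imprinted genes in both knockdowns. Impact, a paternally expressed regulator of protein synthesis, was at 1241, 1520.2 and 1239 on control arrays, 2767, 3167 and 2756 on Jmjd2b arrays and 1841 and 4014 on Jmjd2c arrays, with all knockdown arrays above the controls. Its differences were 1.11 ± 0.23 (adjusted p = 0.00618) and 1.03 ± 0.26 (adjusted p = 0.0342), the second lost without control array 1, 2 or 3, Jmjd2b knockdown array 1, 2 or 3 or Jmjd2c knockdown array 2 (difference 0.47 to 1.12, adjusted p from 0.0515 to 0.122). On Jmjd2c array 2 alone the Impact difference was 1.59.

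Gnas, the stimulatory G protein alpha subunit, whose imprinting differs between its transcripts, was at 2973, 2947 and 2897 on control arrays, 4995, 4950.0 and 5004 on Jmjd2b arrays and 2659.7 and 3864 on Jmjd2c arrays, where the arrays lay on both sides of the controls. The Jmjd2b rise was 0.76 ± 0.11 (limma adjusted p = 0.00121); the brightest of the other Gnas probe sets, with a mean of 49.2, gave -0.02, and the next, with a mean of 38.9, gave 0.90. Taken alone, Jmjd2c arrays 1 and 2 differed from the control mean of Gnas by -0.14 and 0.39. Slc38a4, an amino acid transporter read from the paternal copy, was at 1950.2, 2582 and 2117 on control arrays, 1528, 1699 and 1681 on Jmjd2b arrays and 1789 and 1524 on Jmjd2c arrays, below the controls on every knockdown array. It fell in the Jmjd2b knockdown (-0.43 ± 0.12, adjusted p = 0.0237), a call lost without control array 2 or 3 or Jmjd2b knockdown array 1 or 2 (difference -0.45 to -0.31, adjusted p from 0.0592 to 0.0901). In the Jmjd2c knockdown its difference of -0.41 ± 0.13 did not pass (adjusted p = 0.0779), and it was -0.30 and -0.53 on arrays 1 and 2 alone.

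The remaining single loci did not pass in the Jmjd2b knockdown over all arrays. Nnat, a small membrane protein gene of neurons, differed by 0.70 (0.08 to 1.31, limma adjusted p = 0.0973). It passed in the fit of only the 2 groups compared (adjusted p = 0.0456), where 30.8% of all genes were called. Grb10, a signalling adaptor that restrains growth, differed by 0.21 (-0.12 to 0.54) and, in the Jmjd2c knockdown, by -0.40 (-0.76 to -0.03), which did not pass. The Jmjd2c difference was -0.68 and -0.12 on arrays 1 and 2 alone. Commd1, Nap1l5 and Dcn differed in the Jmjd2b knockdown by -0.10, 0.03 and 0.33. Dcn, decorin, is also a matrix gene of fibroblasts. The interval of Commd1, -0.29 to 0.09, was the narrowest of these.

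In the Jmjd2c knockdown, 4 of the 38 imprinted genes rose (Peg3, Meg3, Ndn and Impact), 4 fell (Cdkn1c, Ascl2, Slc22a18 and Ampd3) and 30 did not pass. The called share was 21.1%, against 9.53% of all genes, 4.28% higher and 5.25% lower, and 24.0% of the 25 imprinted genes above the median level were called, against 15.5% of all genes above it. The median difference was 0.13, against -0.02 for all genes. The Jmjd2c arrays were both above the controls for 13 imprinted genes and both below for 9, where 38.6% of all genes had groups that did not overlap (17.4% above, 21.2% below). Peg3, Meg3, Ndn and Impact rose in both knockdowns and Ascl2, Slc22a18 and Ampd3 fell in both; over all genes 3.95% rose in both and 4.6% fell in both. The 2 comparisons share their control arrays. All 20 genes called in the Jmjd2b knockdown had the same sign in the Jmjd2c knockdown, 13 of them without passing there, and no gene was called in opposite directions. The number of calls rested on single arrays. With 1 control or Jmjd2b array left out, 1 to 3 genes rose and 1 to 4 fell. Over all genes the called share was then 2.54% to 8.87%, against 9.53% over all 8 arrays. The counts were 1 and 1 without control array 1 or 3 and 2 and 2 without control array 2. They were 1 and 4 without Jmjd2b array 1 or 2. They also shifted without either Jmjd2c array, which leaves 1 array in that group. With the array set as a block 0 rose and 0 fell (2 and 5 at limma's unadjusted p under 0.05), when 0.033% of all genes were called.

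Between the knockdowns, Cdkn1c was the 1 imprinted gene called lower in the Jmjd2c than in the Jmjd2b knockdown, and 0 were called higher (2.63%, against 0.467% of all genes, 0.137% higher and 0.33% lower). At an unadjusted p under 0.05 limma gave 10 imprinted genes lower and 3 higher. The median difference was -0.23, against 0.00 for all genes, with 29 of 38 genes below 0. For 13 imprinted genes both Jmjd2c arrays were below all Jmjd2b arrays and for 4 above, where 27.1% of all genes had groups that did not overlap (13.7% below, 13.4% above). The 14 genes that rose in the Jmjd2b knockdown all had a Jmjd2c mean between the control and Jmjd2b means on the log2 scale. So did 4 of the 6 that fell, and the others, Ascl2 and Slc22a18, were lower in the Jmjd2c knockdown. These genes were chosen by their Jmjd2b difference, so their order is partly set by that choice. The Cdkn1c call was lost when any 1 of the control or Jmjd2b arrays was left out. In those fits 0 imprinted genes were called lower (with 7 to 10 at limma's unadjusted p under 0.05). Of all genes, 0.011% to 0.368% were then called, against 0.467% over all 8 arrays. The count also shifted without either Jmjd2c array, which leaves 1 array in that group.

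The 2 Jmjd2c arrays lay apart at several imprinted genes, a pattern that was noticed after the values were seen and has no test. For 7 of the 38 imprinted genes (18.4%) they were at least 1 log2 unit apart, against 3.86% of all genes. Array 2 was higher for Plagl1 (by 3.30), Peg12 (1.43), Sgce (1.30), Ndn (1.21) and Impact (1.12) and lower for Phlda2 (-2.75) and Cdkn1c (-1.20). The 5 genes higher on array 2 are listed as read from the paternal copy, and the 2 lower genes from the maternal copy. Over the 3 Jmjd2b arrays 0 imprinted genes spanned 1 log2 unit, near the share of 1.5% among all genes, and over the controls 1, Nnat, did, where 0.956% of all genes did. Array 2 is also the one with more Kdm4c left (142 and 469 on arrays 1 and 2); the part of the target level in these gaps was not tested.

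**Figure D3:**
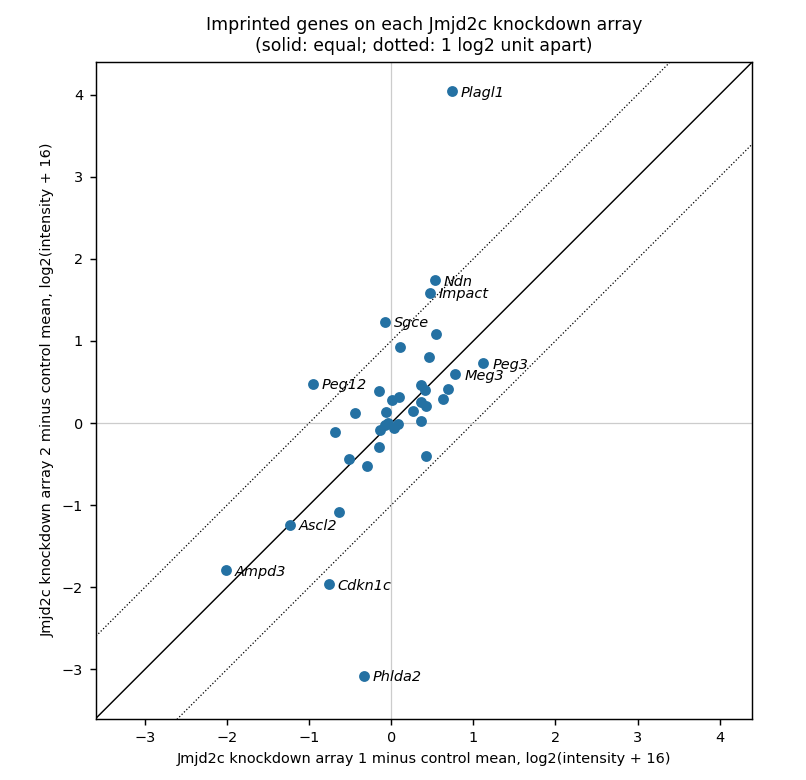
Difference from the control mean on Jmjd2c knockdown array 1 (x axis) and array 2 (y axis), both on the log2(intensity + 16) scale, for the 38 imprinted genes. The solid line marks equal values and the dotted lines 1 log2 unit; Plagl1, Peg12, Sgce, Ndn and Impact lie above the upper dotted line and Phlda2 and Cdkn1c below the lower one.

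By the copy they are read from, 10 of 19 measured paternally expressed genes rose in the Jmjd2b knockdown and 2 fell, with a median difference of 0.80; of all genes 11.5% rose and 12.9% fell. Of 18 measured maternally expressed genes 3 rose (the noncoding RNAs Meg3, Rian and Mirg) and 4 fell (Ascl2, Slc22a18, Copg2 and Ampd3), with a median of 0.08. After Jmjd2c knockdown 3 paternally expressed genes were called higher and 0 lower (median difference 0.46), as were 1 higher and 4 lower of the maternally expressed ones (median -0.08), where 4.28% of all genes were called higher and 5.25% lower. At an unadjusted p under 0.05 limma gave 2 paternally expressed genes lower in the Jmjd2c knockdown. The paternally expressed genes that fell in the Jmjd2b knockdown were Mkrn3 and Slc38a4. The difference between the 2 origins was not tested, and genes of 1 cluster share control regions and are not independent. Gnas was counted under neither. The grouping uses the listed origin of each gene, not one measured in these cells. Whether each gene is read from only 1 copy in these cells was not measured.

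**Figure D4:**
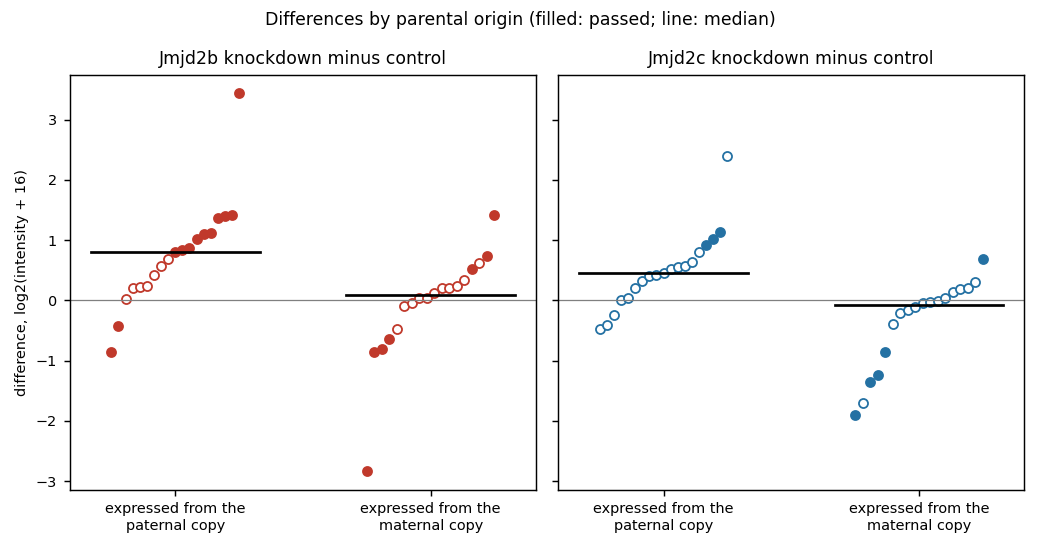
Differences from the control on the log2(intensity + 16) scale (y axis) for the 19 paternally and 18 maternally expressed genes (x axis), Jmjd2b knockdown on the left in red and Jmjd2c knockdown on the right in blue; each point is a gene, filled where it passed limma's adjusted p of 0.05, and lines are medians. In the Jmjd2b knockdown the medians are 0.80 and 0.08, and both origins hold genes on each side of 0.

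Genes that set, read or remove imprints were described as a list of 21, which included DNA methyltransferases and their partners, the TET oxygenases, ZFP57 and TRIM28, and histone methyltransferases. In the Jmjd2b knockdown 5 rose and 6 fell; in the Jmjd2c knockdown 0 rose and 2 fell. The called shares were 52.4% and 9.52%, against 24.4% and 9.53% of all genes, so that of the Jmjd2c knockdown was at the background. At an unadjusted p under 0.05 limma gave 3 of them higher in the Jmjd2c knockdown. Tet2, which oxidises methylated cytosine, was at 1403, 1306 and 1615 on control arrays, 355, 276 and 349 on Jmjd2b arrays and 675 and 421 on Jmjd2c arrays, and fell in both (-2.09 ± 0.18, limma adjusted p = 8.27e-05, and -1.40 ± 0.20, adjusted p = 0.00472). Tet1, of the same family, was at 3448, 4415 and 4369 on control arrays, 2560.2, 2490.1 and 2966 on Jmjd2b arrays and 3015 and 2711 on Jmjd2c arrays, all knockdown arrays being below the controls. Tet1 fell in both as well (-0.60 ± 0.11, adjusted p = 0.00351, and -0.50 ± 0.12, adjusted p = 0.0331), the second lost without control array 2 or 3, Jmjd2b knockdown array 1 or Jmjd2c knockdown array 2 (difference -0.50 to -0.42, adjusted p from 0.0553 to 0.134). The replicate block also ended it (-0.43, adjusted p = 0.0649).

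Dnmt3b, a methyltransferase that adds new methylation and a marker of primed epiblast, was at 1421, 2645 and 1793 on control arrays, 5838, 8129 and 10429 on Jmjd2b arrays and 6157 and 2241 on Jmjd2c arrays. It rose after Jmjd2b knockdown (2.06 ± 0.35, limma adjusted p = 0.00256). In the Jmjd2c knockdown, where array 2 overlapped the controls, it did not pass (0.97, adjusted p = 0.166), and array 1 alone gave 1.70. Uhrf1, which brings the maintenance methyltransferase to replicated DNA, and Ezh2, a histone methyltransferase, fell in the Jmjd2b knockdown by 0.43 ± 0.09 (adjusted p = 0.00604) and 0.46 ± 0.07 (adjusted p = 0.00124). In the Jmjd2c knockdown Uhrf1 differed by -0.29 and did not pass (adjusted p = 0.0986), and array 2 alone gave -0.39. Zfp57, named because its hexamer was searched, was at 131, 133 and 148 on control arrays, 89.2, 63.4 and 74.6 on Jmjd2b arrays and 106 and 63.3 on Jmjd2c arrays, below every control on each knockdown array. It fell in the Jmjd2b knockdown (-0.75 ± 0.18, adjusted p = 0.0145), a call lost without control array 3 or Jmjd2b knockdown array 2 (difference -0.70 to -0.65, adjusted p from 0.066 to 0.0689). Its Jmjd2c difference of -0.64 did not pass (adjusted p = 0.0823), and array 2 alone gave -0.95.

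A second list held 37 other imprinted genes, many with imprinting limited to placenta or brain, of which 32 were measured. In the Jmjd2b knockdown 3 rose, 3 fell and 26 did not pass (18.8% called, below the 24.4% of all genes); in the Jmjd2c knockdown 2 rose and 1 fell (9.38%, near the 9.53% of all genes). Cobl, an actin nucleator, was at 2398, 1896 and 2216 on control arrays, 657, 538 and 764 on Jmjd2b arrays and 1015 and 753 on Jmjd2c arrays, and fell in both (-1.72 ± 0.16, limma adjusted p = 0.000116, and -1.29 ± 0.18, adjusted p = 0.00425). Calcr, the calcitonin receptor, was at 10.3, 13.2 and 7.01 on control arrays, 93.5, 179 and 162 on Jmjd2b arrays and 73.8 and 145 on Jmjd2c arrays and rose in both (2.58 ± 0.26, adjusted p = 0.000177, and 2.21 ± 0.29, adjusted p = 0.00398). Pon2, a paraoxonase near Peg10 and Sgce, was at 52.4, 62.4 and 48 on control arrays, 248, 346 and 216 on Jmjd2b arrays and 110.1 and 251 on Jmjd2c arrays. For these 3 genes no knockdown array overlapped the controls. Pon2 rose in both (2.00 ± 0.27, adjusted p = 0.000662, and 1.39 ± 0.30, adjusted p = 0.0199), the second lost without control array 1 or 3 or Jmjd2c knockdown array 2 (difference 0.85 to 1.37, adjusted p from 0.0632 to 0.0851). Atp10a rose in the Jmjd2b knockdown (1.41 ± 0.29, adjusted p = 0.00602) and passed in the Jmjd2c knockdown without control array 2 (1.29, adjusted p = 0.0434) or with the replicate block (1.15, adjusted p = 0.034). Ddc differed by -0.20 and 0.42 and passed in neither comparison with the control.

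The nearest protein-coding genes outside the imprinted clusters, up to 2 measured genes on each side of each cluster, were taken as a local background. Of 68 such genes, 12 were called higher and 16 lower after Jmjd2b knockdown (41.2%), and 3 higher and 5 lower after Jmjd2c knockdown (11.8%), against 24.4% and 9.53% of all genes, so the flanking genes were themselves called more often than all genes in the Jmjd2b knockdown. Their median differences were -0.06 and 0.03. The imprinted genes were called in 52.6% and 21.1%, with medians of 0.29 and 0.13.

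Of the 10 embryonic stem cell markers, Pou5f1 and Sox2 had intensities of 7409.8 or more on every array. Cell state markers moved with the groups, and their called shares stand against 24.4% of all genes in the Jmjd2b and 9.53% in the Jmjd2c knockdown. Of 9 measured markers of primed epiblast 8 rose in the Jmjd2b knockdown and 4 in the Jmjd2c knockdown, with summed intensities of 4101 to 5631 in the controls, 14799 to 27867 in the Jmjd2b knockdown and 9028 to 14878 in the Jmjd2c knockdown. Of 10 embryonic stem cell markers 6 fell and 1 rose in the Jmjd2b knockdown, and 4 fell in the Jmjd2c knockdown. The sums of these 10 were 53802 to 55741 in the controls, 45122 to 46595 in the Jmjd2b and 47948 to 48803 in the Jmjd2c knockdown. Of 9 neural markers 5 rose in the Jmjd2b knockdown and 3 in the Jmjd2c knockdown. Their sums were 1499 to 1603 in the controls, 5141 to 7355 in the Jmjd2b and 2935 to 2946 in the Jmjd2c knockdown. For 3 of the 9, all Jmjd2b arrays were below all controls. At limma's unadjusted p under 0.05, 2 neural markers were lower in the Jmjd2b and 1 in the Jmjd2c knockdown. Of 9 trophectoderm markers 4 rose and 2 fell in the Jmjd2b knockdown (66.7%), and 1 rose in the Jmjd2c knockdown (11.1%, near that of all genes), with sums of 3841 to 4338, 5990 to 7108 and 3748 to 4973. Of 8 primitive endoderm markers 3 rose and 1 fell in the Jmjd2b knockdown (50%), and 1 rose in the Jmjd2c knockdown (12.5%), with sums of 2708 to 3101, 4361 to 5212 and 2990 to 3564, and Afp was under 16 throughout.

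Of 15 fibroblast markers, which feeder cells would carry, 3 rose and 2 fell in the Jmjd2b knockdown (33.3% called) and 1 rose and 3 fell in the Jmjd2c knockdown (26.7%), against the same 24.4% and 9.53% of all genes. Their summed intensity was 2141 to 2197 in the controls, 2414 to 2723 in the Jmjd2b knockdown and 1739 to 2389 in the Jmjd2c knockdown, and Postn was under 16 on every array. Several imprinted genes are strongly expressed in fibroblasts and in early lineages. The ratio of 3′ to 5′ actin probe sets, a measure of RNA integrity, was 1.45 to 1.63 in the controls, 1.31 to 1.42 in the Jmjd2b knockdown and 1.43 to 1.48 in the Jmjd2c knockdown. The part of cell state, of other cell types and of RNA integrity in the imprinted genes' differences was not tested.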

How the data were processed

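RNA of 8 samples was labelled as biotinylated cRNA and hybridised to 1 array each, per the labels' protocols. The authors deposited linear intensities, 1 per probe set and array; their probe summary, background correction and scaling are not described in the labels used here. Of 45101 probe sets, 34945 were annotated to exactly 1 symbol. Each of 18193 genes was represented by the probe set with the highest mean of log2(intensity + 16) over all arrays. A model of group means over the 8 arrays was fitted in limma 3.58.1 (R 4.3.3) with a trend in eBayes, with two-sided p-values adjusted by Benjamini-Hochberg over all genes and a threshold of 0.05. The fit was tested on simulated data. Tables and figures were made with Python 3.11.15, pandas 2.3.3 and matplotlib 3.10.9. The number of arrays limits the precision.

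The members, the gene lists and the rules were chosen with earlier results of these data known. The rule for named genes gives the value on every array for each imprinted gene called in at least 1 comparison, and up to 5 genes of the list of imprint regulators and of the list of other imprinted genes by smallest p; other members that are singled out by array were chosen after their values were seen. Deviations from the group means correlated across genes at 0.176, 0.111 and 0.116 for control and Jmjd2b knockdown arrays of the same number. The main fit held no block for the number and did not pair the arrays. The fit with the replicate block is an alternative, given where it changes a call. For the Jmjd2c knockdown the values were 0.0422 and 0.064 against controls of the same number. Alternatives were other pseudocounts (1 and 64), genes above the median level, quantile normalization, other choices of probe set, only the 2 groups compared, blocks for replicate number, array type and array set, eBayes without a trend, and each array left out.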

Additional observations from a re-analysis of the deposited data

Results flagged for a closer look

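Cdkn1c, the cell cycle inhibitor of the Kcnq1 cluster, differed between the 2 knockdowns: its log2 difference of the Jmjd2c from the Jmjd2b knockdown was -1.99, with the Jmjd2b arrays above and the Jmjd2c arrays below all controls. It was the only imprinted gene past limma's adjusted threshold in that direct comparison. The adjusted p was 0.0241 over all 8 arrays. The call was lost when any 1 control or Jmjd2b array was left out, and with the array set or array type as a block. It was also lost in the fit of only the 2 groups compared (limma adjusted p = 0.147).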

How the results depend on the processing

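Of the 20 calls in the Jmjd2b knockdown, 9 passed under every alternative that could be run (Peg3, Meg3, Ndn, Mkrn3, Igf2, Peg10, Impact, Copg2 and Ampd3), as did 0 of the 8 calls in the Jmjd2c knockdown and 0 of 1 between the knockdowns. Every call kept its direction except that Dlk1 was at -0.13 and Gnas at -0.016 in the Jmjd2b knockdown without probe sets that can detect several transcripts. The share of all genes called also changed with these alternatives, from 24.4%, 9.53% and 0.467% in the 3 comparisons of the main fit. With the array set as a block, 9 imprinted genes were called higher in the Jmjd2b knockdown, 0 higher and 0 lower in the Jmjd2c knockdown and 0 lower between the knockdowns. Of all genes 16.4%, 0.033% and 0.0275% were then called. With array type as a block the Jmjd2c counts were 0 higher and 1 lower, and 0 lower between the knockdowns (5.73% and 0.022% of all genes called). With only the 2 groups compared in the fit, 0 were higher in the Jmjd2c knockdown and 0 lower between the knockdowns (4.8% and 0.011% of all genes called). Limma's unadjusted p was under 0.05 for 8 and 9 imprinted genes in those directions. Without a trend 2 were higher in the Jmjd2c knockdown, and 1 with the mean of all probe sets (7.76% and 7.88% of all genes called). Quantile normalization gave 2 genes lower between the knockdowns (0.698% of all genes called). With 1 array left out, 11 to 17 genes were higher and 3 to 7 lower in the Jmjd2b knockdown, 1 to 7 higher and 1 to 6 lower in the Jmjd2c knockdown, and 0 to 9 lower between the knockdowns. The replicate block gave 16 higher and 6 lower in the Jmjd2b knockdown and 5 higher and 3 lower in the Jmjd2c knockdown (23.7% and 7.57% of all genes called). The cause of these shifts was not tested. Leaving out 1 Jmjd2c array leaves 1, which is assumed to vary like the other groups. The 5 members under 16 on some arrays and Zim1 are near the dim end, where differences on this scale are understated.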
